A study of Mus musculus with 2 samples.

Results

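The mouse T cell receptor alpha and delta locus was described by DNase I-seq of whole thymus, an assay in which DNA that the nuclease DNase I can reach is cut, sequenced and called as peaks. Its members were all genes on chromosome 14 that the GENCODE M21 annotation types as a T cell receptor V, D, J or C gene, which gave 172 of the 55413 annotated genes on the autosomes, X and Y. They comprised 115 V, 2 D, 53 J and 2 C segments, while 21 V and 9 J pseudogenes were not counted. The samples came from male B6CASTF1/J mice, whose parents are the strains C57BL/6J and CAST/EiJ, at 2 months of age. They formed 1 group of 2 replicates, with no treatment and no control group. The labels number a separate animal for each replicate but give both the same donor identifier, so that the spread between them may be technical.

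The locus holds a V array, then the delta D, J and C segments, then the alpha J segments and the alpha constant gene Trac. The RAG1 and RAG2 proteins join 1 V to 1 J segment, with D segments between them for the delta chain, by cutting at recombination signal sequences, each a heptamer and a nonamer with a 12-base or a 23-base spacer. A joining of V alpha to J alpha removes the DNA between the joined segments, the delta segments included, and accessibility of a segment is known to be needed for RAG to use it. The alpha enhancer lies past Trac, ahead of the widely expressed gene Dad1, and the T early alpha promoter and the J alpha 49 promoter mark the start of the J alpha array. How many copies of each segment the sampled thymocytes still held was not measured.

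The sequences the results turn on are given first, from the GRCm38 (mm10) reference, + strand unless stated. The reference is of C57BL/6J, and the bases of the CAST/EiJ chromosome were not analysed here. In the following 4 stretches, capitals mark bases inside a footprint of both replicates, a footprint being a short stretch that the authors called as protected from cutting. They are the central 300 bases of the highest peak of the locus, at chr14:54227421-54227720 past Trac; the region ahead of the J alpha array, at chr14:54152941-54153120; the region at Traj49, at chr14:54168521-54168700; and the stretch that ends at the 5′ end of Trav1, at chr14:52427781-52427927.
Region after Trac: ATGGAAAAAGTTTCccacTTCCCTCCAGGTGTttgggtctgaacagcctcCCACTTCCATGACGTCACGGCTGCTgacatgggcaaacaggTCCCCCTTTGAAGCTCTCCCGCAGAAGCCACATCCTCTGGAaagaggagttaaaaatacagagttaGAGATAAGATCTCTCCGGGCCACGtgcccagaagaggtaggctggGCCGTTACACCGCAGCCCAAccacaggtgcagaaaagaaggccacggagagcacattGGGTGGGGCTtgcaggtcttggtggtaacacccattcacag
Region before Traj59: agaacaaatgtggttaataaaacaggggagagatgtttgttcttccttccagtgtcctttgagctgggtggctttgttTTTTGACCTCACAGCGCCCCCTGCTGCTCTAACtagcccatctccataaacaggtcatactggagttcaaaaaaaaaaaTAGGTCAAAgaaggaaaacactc
Region at Traj49: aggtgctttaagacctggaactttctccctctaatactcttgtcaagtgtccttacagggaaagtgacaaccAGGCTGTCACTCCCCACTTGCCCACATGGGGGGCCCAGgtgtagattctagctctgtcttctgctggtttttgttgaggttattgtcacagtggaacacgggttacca
Stretch before Trav1: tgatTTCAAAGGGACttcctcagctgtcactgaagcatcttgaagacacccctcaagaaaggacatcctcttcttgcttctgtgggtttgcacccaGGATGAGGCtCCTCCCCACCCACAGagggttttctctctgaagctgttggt

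The 300 bases past Trac held 1 whole cyclic AMP response element (TGACGTCA) at bases 60 to 67 of the printed stretch and 1 TCF/LEF motif (CTTTGAA) at bases 97 to 103, and every base of both lay in footprints of both replicates. An E-box (CAGGTG) at bases 26 to 31 was likewise covered, whereas another at bases 226 to 231 was not. A GATA motif (AGATAA) at bases 159 to 164 was covered in full. A RUNX motif (TGTGGT) from base 222 on, overlapping that uncovered E-box, had 1 of its 6 bases in such footprints. No ETS motif (CGGAAGT or AGGAAGT) was found. Only these exact letters were searched, so near forms were not counted. In the capitals these include ACTTCC, which reads GGAAGT on the - strand, and GCCACA, which reads TGTGGC there. The element was the only whole cyclic AMP response element among the 98 regions of the locus that had a peak in both replicates, and 1.35% of the 51709 such regions of the genome held one. CREB/ATF, TCF/LEF, RUNX and ETS proteins are known to bind the alpha enhancer.

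The recombination signals of 3 V, 1 D and 2 J segments are shown because peaks met the signals of the V and J segments and missed those of the D segment. They are read from the segment outward, with the heptamer and the nonamer in capitals, on the + strand for V signals and for the 23-base signal after Trdd2, and on the - strand for signals before J segments.
Trav15-1-dv6-1, chr14:53560248-53560286: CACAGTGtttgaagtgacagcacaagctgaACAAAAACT
Trav13-2, chr14:53635400-53635438: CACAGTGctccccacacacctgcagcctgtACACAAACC
Trav21-dv12, chr14:53876753-53876790: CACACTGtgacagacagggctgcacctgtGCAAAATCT
Trdd2, 23-base side, chr14:54122242-54122280: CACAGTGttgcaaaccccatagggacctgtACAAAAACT
Traj58, chr14:54157252-54157279: CACTGCActgaagggctttGCAAAAACT
Traj49, chr14:54168658-54168685: CACTGTGacaataacctcaACAAAAACC

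Peaks were taken from the stricter of the 2 lists deposited per sample. A segment counted as accessible where both replicates had a peak no farther than 1000 bp from its annotated 5′ end, and its value was the highest score of such a peak, on the linear scale of the authors' signal score. Of the V segments, 44 of 115 were accessible (38.3%, 95% Wilson interval 29.9 to 47.4%), against 28.5% of all annotated genes. J segments lay below that background, with 5 of 53 (9.43%, interval 4.10 to 20.3%). Of the D segments 0 of 2 were accessible, and of the C segments 0 of 2. With so few segments, the interval of each reached 65.8% and took in the background. On the segment itself, extended by 100 bp, 38 V, 3 J, 0 D and 1 C segments had a peak in both replicates. The share for J segments, 5.66%, was close to the 4.73% found for annotated genes of at most 100 bp. Each replicate alone had a peak at 49 V segments, 5 of which the other replicate lacked, and 61 V segments had none in either. The intervals cover counting error only.

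The tissue label was checked on promoters. All 10 T lineage markers had a promoter peak in both replicates, and 0 of 6 markers of other organs had one. Of 20 genes whose products recombine the locus, form the receptor with its chains or bind its elements, 19 had one (95%), against 59.0% of protein-coding genes. Rag1 scored 8.32 in replicate 1 and 4.61 in replicate 2, and Rag2 scored 5.87 and 4.08. Ctcf, whose product anchors chromatin loops, scored 13.5 and 9.24, and Tcf3, which encodes the E protein E2A, scored 9.31 and 6.25. The exception was Dntt, the terminal transferase that adds bases at the joins, with 3.07 in replicate 1 and no peak in replicate 2. Dad1 and Abhd4, the protein-coding genes next after Trac, share a promoter region that scored 11.4 and 9.72, and Olfr49, an olfactory receptor gene beyond them, had no peak in either replicate.

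Across the window from 100 kb before Trav1 to 100 kb after Trac, replicate 1 had 140 peaks and replicate 2 had 118. Of these, 70.0% in replicate 1 and 83.1% in replicate 2 met a peak of the other, against 83.8% and 79.8% in the genome. The 98 shared regions scored higher in replicate 1 in 78 cases, with a median log2 ratio of replicate 1 to replicate 2 of 0.38 (SD 0.45), against 0.22 (SD 0.46) over the shared regions of the genome. The replicates parted by place. In the V array 9 peaks of replicate 1 and 16 of replicate 2 lacked a partner, while from Trdv4 to Trdv5 the numbers were 7 and 0, in the 5′ part of the J alpha array 13 and 1, and between Trac and Dad1 5 and 0.

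**Figure D1:**
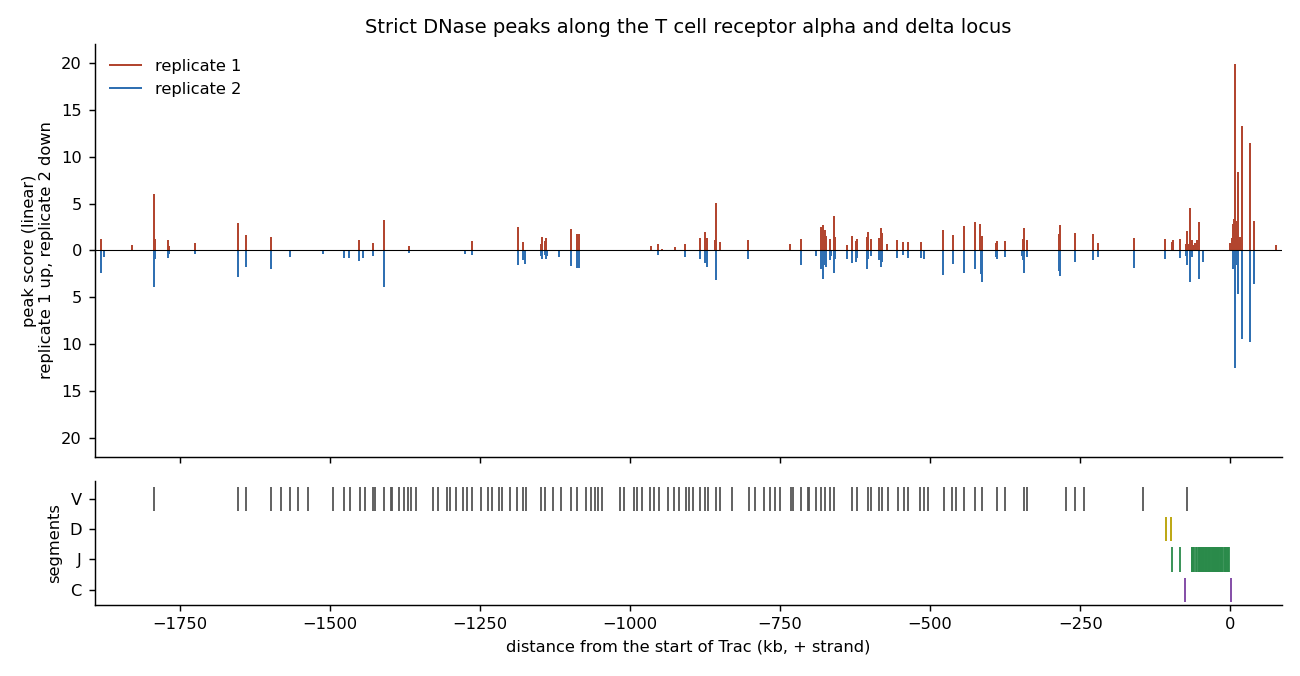
Score of each strict peak (linear) against its distance from the start of Trac in kb, with replicate 1 drawn upward and replicate 2 downward, above the places of the V, D, J and C segments. The highest peaks stand past Trac, up to 19.9 in replicate 1 and 12.5 in replicate 2, low peaks are spread over the V array, and most of the J alpha array has none.

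The V array from Trav1 to Trdv4 carried 86 peaks in replicate 1 and 93 in replicate 2, or 5.22 and 5.64 peaks per 100 kb, against 2.28 and 2.45 in the genome. Footprints numbered 21.0 and 20.2 per 100 kb in the array, against 10.7 and 10.8 in the genome. The peaks were low. At accessible V segments the scores ran from 0.496 to 6.00 with a median of 1.37 in replicate 1, and from 0.298 to 3.94 with a median of 1.06 in replicate 2, while the median peak of the genome scored 1.58 and 1.37.

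V segments and regions were ranked by the mean score of the replicates. Trav1, the outermost V segment, had the highest score, with 6.00 in replicate 1 and 3.94 in replicate 2. Trav10d, a copy in the duplicated part of the array, followed by that mean, with 3.22 and 3.87. Trav15-1-dv6-1, a V segment that both the alpha and the delta chain can use, had 3.72 and 2.39, which in replicate 1 alone was above Trav10d. These 3 stand far apart along the array. Trav2 stood at 2.91 and 2.87, close to equal in the replicates. B230359F08Rik, which the annotation types as a V gene without a Trav name, had 3.08 and 1.98. Trav3-4 had 2.61 and 2.36.

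Trav17 differed most between replicates among the accessible V segments. It had 1.53 in replicate 1 and 3.39 in replicate 2, a log2 ratio of replicate 1 to replicate 2 of -1.15, against the general tilt toward replicate 1. The last of the 10 highest V segments lay close together in height. Trav21-dv12, another segment that both chains can use, had 2.41 and 2.36. Trav12-1 had 2.51 and 2.01, and Trav13d-3 had 2.49 and 1.53.

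The lowest accessible V segments were Trav13d-1 with 0.496 and 0.298, Trdv5 with 0.674 and 0.444, and Trav15n-2 with 0.704 and 0.456. Trdv5, a delta V segment in the opposite orientation, overlaps the end of Trdc and reaches past it. In Trdv5 the highest peaks of the replicates stood at different places. They lay 684.5 bp past the 5′ end in replicate 1 and 145 bp past it in replicate 2. A slightly lower peak of replicate 1, with 0.644, met that of replicate 2. After Trav17, the V segments least alike between replicates all leaned to replicate 1. Trav14d-3-dv8 had 1.03 and 0.468, Trav12-2 had 1.96 and 0.954, Trav9-4 had 0.933 and 0.456, and Trav15d-2-dv6d-2 had 1.06 and 0.529, with log2 ratios of 1.00 to 1.14.

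Accessible V segments were unevenly placed. In 5 successive runs of 23 V segments from Trav1 to Trdv5, 8, 7, 4, 10 and 15 were accessible, so that the run next to the delta and J segments had the most. The share of sequence that is unique in the genome moved with this order. The median percentage of 31-base words found once in the genome, over each segment and 1000 bp either side, was 29.6, 1.51, 0.834, 41.2 and 73.0% in the same runs. The central part of the array is duplicated in the mouse reference, and its copies carry the letters d and n in their names. Of segments with the letter d, 9 of 34 were accessible, of those with n 6 of 28, and of those with neither 29 of 53. Accessible V segments had a median of 49.7% unique words, against 2.55% at the others. By quartiles of the unique share, low to high, 2 of 29, 8 of 29, 16 of 28 and 18 of 29 V segments were accessible. Reads that match several copies cannot be placed with certainty, and how the authors treated them is not given in the sources used here, so the part of this in the count of accessible V segments was not tested. Trav13d-3, among the 10 highest, had 2.41% unique words, and Trdv4, with no peak in either replicate, had 100%.

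**Figure D2:**
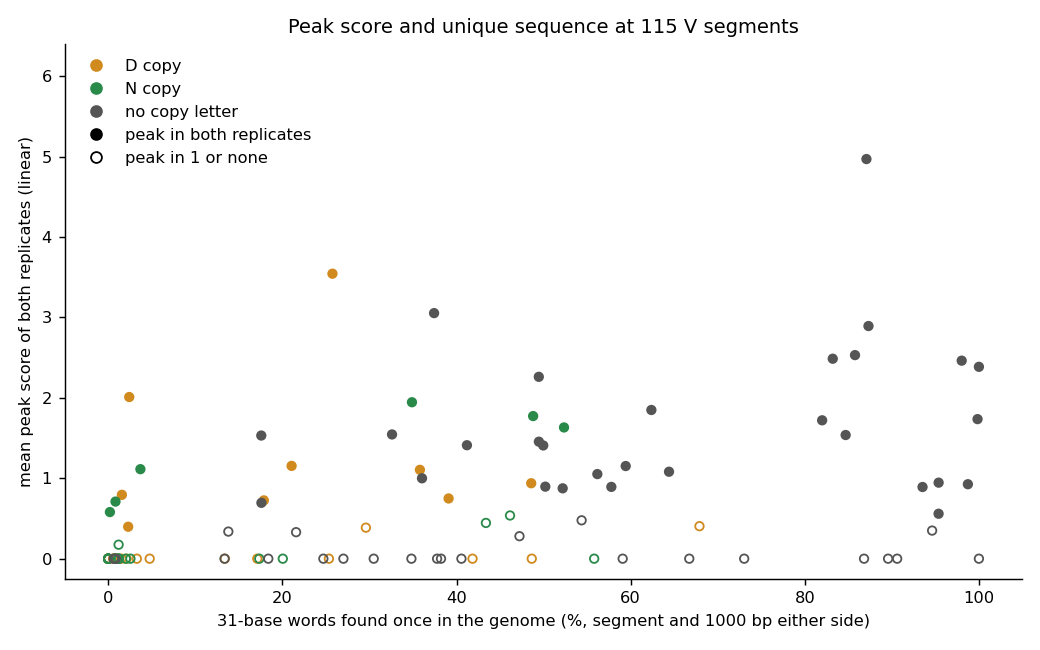
Mean peak score of both replicates (linear) at each of 115 V segments against the percentage of 31-base words around it that occur once in the genome, coloured by copy letter. Filled points had a peak in both replicates and open points in 1 or none, and open points crowd at the lower left, where little of the sequence is unique.

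Peaks stood at either end of the V segments. In 26 of the 44 accessible V segments the centre of the highest peak lay upstream of the 5′ end in both replicates, the side of the promoter. In 14 others it lay past the middle of the segment in both replicates, toward the 3′ end where the recombination signal begins. Relative to the 5′ end, Trav1 had it at -37 bp in both replicates, and Trav17 had it at -224.5 bp in replicate 1 and -228 bp in replicate 2. By contrast, Trav15-1-dv6-1 had it 699 bp past the 5′ end in replicate 1 and 709 bp in replicate 2, beyond the last base of a segment of 616 bp.

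**Figure D3:**
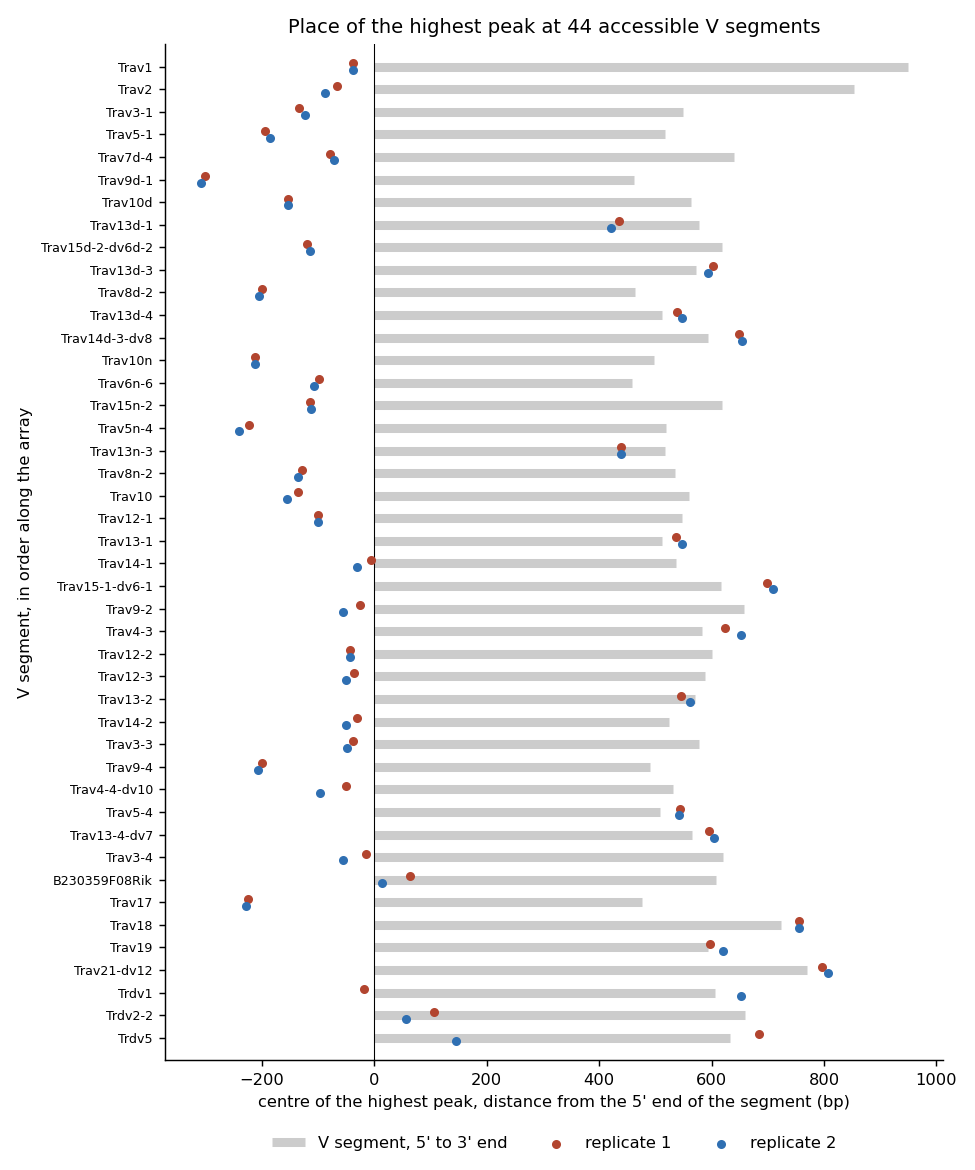
Centre of the highest peak within 1000 bp of the 5′ end, in bp from that end, for 44 accessible V segments in order along the array, with grey bars for the length of each segment. Points of replicate 1 and replicate 2 fall together either just before the 5′ end or near the 3′ end in most segments, and part widely in Trdv1 and Trdv5.

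The ends were then scored separately, in windows chosen after the placement had been seen: 300 bp before to 50 bp past the 5′ end, and the recombination signal with 100 bp either side. In both replicates, 34 V segments had a peak at the 5′ end and 21 at the signal, 12 of them at both ends. Where both ends were open, the 5′ end scored higher in both replicates in 6 and the signal end in 5. Scores at the signal end ran from 0.748 to 5.10 with a median of 1.29 in replicate 1, and from 0.468 to 3.15 with a median of 0.930 in replicate 2. Those at the 5′ end had medians of 1.34 and 1.08, so that the ends differed little in height.

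V families differed in which end was open, and these differences were not tested. The Trav13 family was open at the signal in 7 of 11 members and at the 5′ end in 2, while the Trav10 family was open at the 5′ end in 3 of 3 and at the signal in none. Trav13n-4 had the highest peak at a signal, 5.10 in replicate 1 and 3.15 in replicate 2. Its annotated 5′ end lies 1840 bp before its 3′ end, so the 1000 bp rule missed it. Trav15-1-dv6-1 had 1.80 and 1.02 at its 5′ end and 3.72 and 2.39 at its signal. Trav6 and Trav7, the families with the most members, were accessible in 1 of 15 and 1 of 13 members. A median of 41.8% and 30.5% of their words were unique, against 3.69% in Trav13, and the part of unique sequence in these counts was not tested. These families were singled out after their values were seen.

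A recombination signal with a 23-base spacer, allowing 22 to 24, was found at the 3′ end of 115 of 115 V segments, with the exact heptamer CACAGTG in 96. The search was loose. It asked only for a heptamer beginning CAC near the segment end, with no limit on mismatches in its other bases or in the nonamer. The nonamer had at most 3 mismatches in 100 of the 115. The signal itself met a peak in both replicates in 19 V segments and a footprint of both replicates in 14. Spacers held an E-box (CAGGTG or CAGCTG, on either strand) in 12 of the 21 V segments with a peak at the signal (57.1%) and in 44 of the other 94 (46.8%), against 2.09% of all stretches of 23 bases in the window. In the printed signal of Trav13-2 the spacer letters cacctg are such a match, and Trav13-2 had 1.29 in replicate 1 and 1.01 in replicate 2 there with a footprint in each. E-boxes are the sites of E proteins. The signal of Trav15-1-dv6-1 had footprints in both replicates as well, with no E-box in its spacer.

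Among shared regions within 1000 bp of a V 5′ end, 78.6% held an E-box in the 300 bp on the centre, against 44.5% of shared regions of the genome. RUNX motifs (TGTGGT) were in 35.7% against 22.8%, TCF/LEF motifs (CTTTGAA or CTTTGAT) in 17.9% against 9.28%, and GATA motifs (AGATAA) in 19.6% against 9.17%. ETS motifs (CGGAAGT or AGGAAGT) went the other way, with 10.7% against 18.3%. All motifs were searched on both strands, with overlaps counted once per region. These regions include those at the signal end of V segments, so the shares are not of promoters alone. The E-box share can take in the E-boxes of the spacers given above. V segments and their promoters are alike within families, so these regions are not independent of each other, and no test was made.

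The CTCF consensus was found in 11 of the 98 shared regions, 11.2% against 9.14% of the genome's. In all 11 regions the match met a footprint of both replicates. Of the matches, 10 were on the + strand, in the direction from the V array to Trac, and 1 was on the - strand, in the region 89077 bp before Trav1. This tally holds exact matches only, and near forms were not counted. The capitals printed above for the region before Traj59 hold such a near form on the - strand. Apart from its first base, each of its bases occurs at the same place in a core printed below. Of the 10 exact matches on the + strand, 7 lay before V segments, centred between -216 and -83 bp relative to the 5′ end. These were at Trav8d-2, Trav6n-6, Trav8n-2, Trav12-1, Trav12-2, Trav12-3 and Trav3-3, which the match itself singled out. Matches of 4 of these, of the Dad1 region and of the - strand region are printed to show the shared core, in capitals, with 20 bases either side, each read along the strand of its match.
Trav6n-6, chr14:53132549-53132600: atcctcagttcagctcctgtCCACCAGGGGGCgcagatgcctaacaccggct
Trav8n-2, chr14:53345720-53345771: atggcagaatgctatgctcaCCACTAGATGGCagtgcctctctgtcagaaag
Trav12-1, chr14:53538062-53538113: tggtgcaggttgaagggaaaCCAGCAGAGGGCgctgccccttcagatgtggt
Trav3-3, chr14:53665819-53665870: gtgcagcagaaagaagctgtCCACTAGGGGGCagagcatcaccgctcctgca
Region in Dad1, chr14:54239219-54239270: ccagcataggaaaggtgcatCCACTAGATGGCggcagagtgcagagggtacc
Region before Trav1, - strand, chr14:52338831-52338882: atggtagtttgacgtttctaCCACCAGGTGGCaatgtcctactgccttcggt

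Of the V segments with such a match, Trav12-1 scored 2.51 in replicate 1 and 2.01 in replicate 2, and Trav8n-2 scored 1.96 and 1.30. The core printed for Trav12-1 is also that of its family members Trav12-2 and Trav12-3, and the core printed for Trav8n-2 is also that of Trav8d-2 and of the Dad1 region. The Dad1 region, at chr14:54239101-54239300 in an intron, was the second highest of the locus by the mean of the replicates, with 13.2 in replicate 1 and 9.47 in replicate 2.

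In the delta part, neither D segment had a peak. Trdd1 (chr14:54113468-54113478) and Trdd2 (chr14:54122226-54122241) lie wholly in unique sequence, and both of their signals, with the 12-base and the 23-base spacer, were found without a peak or a footprint in either replicate. The nearest shared region stood 2197 bp before Trdd1, with 1.24 in replicate 1 and 0.918 in replicate 2. Trdj1 had a peak in replicate 1 alone, with 0.948, and Trdj2 had a shared region 421 bp past it, with 1.22 and 0.772, in the stretch between J delta and C delta where the delta enhancer is known to lie. Within Trdc (chr14:54142851-54148868), the delta constant gene, regions scored 2.11 and 1.50, and 0.681 and 0.626. Over the stretch from Trdv4 to Trdv5, replicate 1 had 12 peaks and replicate 2 had 5, and 7.52% and 3.06% of bases had a false discovery rate under 0.05.

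Of the delta V segments, Trdv2-2 was the most accessible, with 1.83 in replicate 1 and 1.25 in replicate 2, and had peaks at both ends. Trdv1 also had peaks at both ends, with 1.14 in replicate 1 and 0.669 in replicate 2 at the 5′ end, and 0.978 and 0.711 at the signal. Trdv4, the last V segment before the D segments, had no peak in either list of either replicate. These segments, too, were named after their values were seen.

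The region ahead of the J alpha array scored 4.57 in replicate 1 and 3.38 in replicate 2. It lies 3102 bp before Traj59, at the place where the T early alpha promoter is known, and its 42 bases in footprints of both replicates are the capitals printed above. A weaker region next to the pseudogenes Traj61 and Traj60 had 0.956 and 0.565. At Traj58 a region that took in the segment and its signal had 1.16 and 0.644. The region at Traj49 had 3.05 and 3.01, nearly the same in both replicates, and reached into the signal of that segment. The same regions gave the values of Traj50 and Traj59 within 1000 bp, so that the 5 accessible J segments rested on 3 regions, that past Trdj2 included. Traj41, Traj42 and Traj43 shared a peak of replicate 2 alone, with 1.21. By the same loose search, a signal with a 12-base spacer, allowing 11 to 13, was found at 49 of 53 J segments. The heptamer was exact in 16, and the nonamer had at most 3 mismatches in 45. Of the 49, 2 signals, those of Traj58 and Traj49, met a peak in both replicates, with a footprint of both replicates at none.

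Most of the J alpha array had no peak. Up to Traj2, replicate 1 had none past the region at Traj49, and replicate 2 had none past the one at Traj42. The middle and the 3′ part of the J alpha array, 20590 bp each when the array is cut in 3, had 0 peaks in either replicate. The longest stretch without a base under a false discovery rate of 0.05 was 49858 bp in replicate 1, from Traj48 to Traj2 with 43 J alpha segments, and 34211 bp in replicate 2, from Traj41 to Traj9 with 30 segments. J segments had a median of 98.9% unique words. The outermost J alpha segments differed: Traj59, the first, had a peak within 100 bp with 0.956 in replicate 1 and 0.565 in replicate 2, and Traj2, the last, had none.

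Before that stretch the replicates differed. In the 5′ part of the J alpha array, 20589 bp, replicate 1 had 15 peaks and replicate 2 had 3, and bases with a false discovery rate under 0.05 made up 37.6% and 4.36%. The peaks of replicate 1 alone were low, for example 1.07 at Traj52, 0.615 on Traj56 and 0.430 at Traj53, where replicate 2 had none. These 3 were named after their values were seen. In 1 stretch of 5 kb, chr14:54160001-54165000, 88.4% of bases in replicate 1 and 0.02% in replicate 2 were under that rate. Of the 545114 such stretches of the genome, 1378 in replicate 1 and 912 in replicate 2 had at least 50% of bases under it. Replicate 1 exceeded replicate 2 by at least 50 percentage points in 99, and replicate 2 exceeded replicate 1 by as much in 19. The locus held 3 of the 99. In whole tissue, a site open in fewer cells and a site less open in each cell cannot be told apart. The cell makeup of each thymus was not measured.

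**Figure D4:**
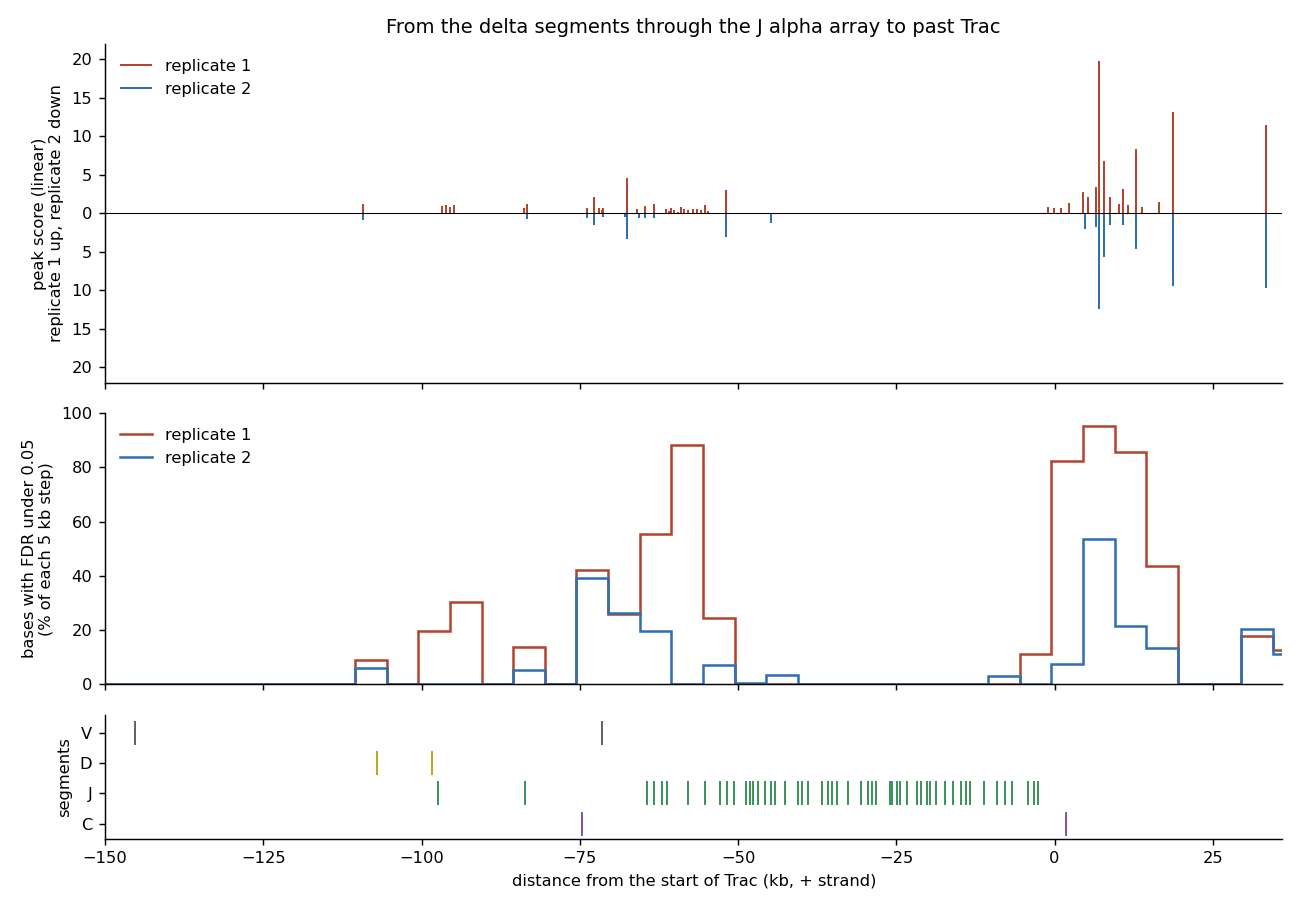
Peak scores (linear, replicate 1 upward, replicate 2 downward), percentage of bases with a false discovery rate (FDR) under 0.05 in steps of 5 kb, and places of the segments, against distance from the start of Trac in kb. Replicate 1 reaches 88.4% at the start of the J alpha array where replicate 2 is at 0.02%, both are near 0 over most of the array, and both rise past Trac.

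Trac (chr14:54220521-54224206), the alpha constant gene, differed in the same way. Replicate 1 had 2 peaks on it, the higher at 1.29, with 80.7% of bases under a false discovery rate of 0.05, and replicate 2 had no peak and 0% of such bases. From the end of Trac to the end of Dad1 nearest to it, a stretch of 11272 bp, replicate 1 had 12 peaks and replicate 2 had 7, with 88.2% and 36.6% of bases under that rate. Each of the 7 peaks of replicate 2 met a peak of replicate 1.

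This stretch held the highest region of the locus, at chr14:54227401-54227740, centred 3365 bp past Trac, with 19.9 in replicate 1 and 12.5 in replicate 2, and with 8 and 6 footprints. Its place is that of the alpha enhancer, and its central bases are those printed first. Beside it, a region 4095 bp past Trac had 6.80 and 5.69, and a region 9225 bp past it had 8.32 and 4.60. The remaining shared regions of the stretch were lower. They stood 745, 2835, 5085 and 7145 bp past Trac, with 2.78 and 2.01, 3.40 and 1.82, 2.17 and 1.50, and 3.13 and 1.52. Each of the 7 was higher in replicate 1, with log2 ratios of replicate 1 to replicate 2 from 0.26 to 1.04, against the genome's median of 0.22. Farther on, Abhd4 held a region of 3.17 in replicate 1 and 3.62 in replicate 2, which leaned the other way.

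**Figure D5:**
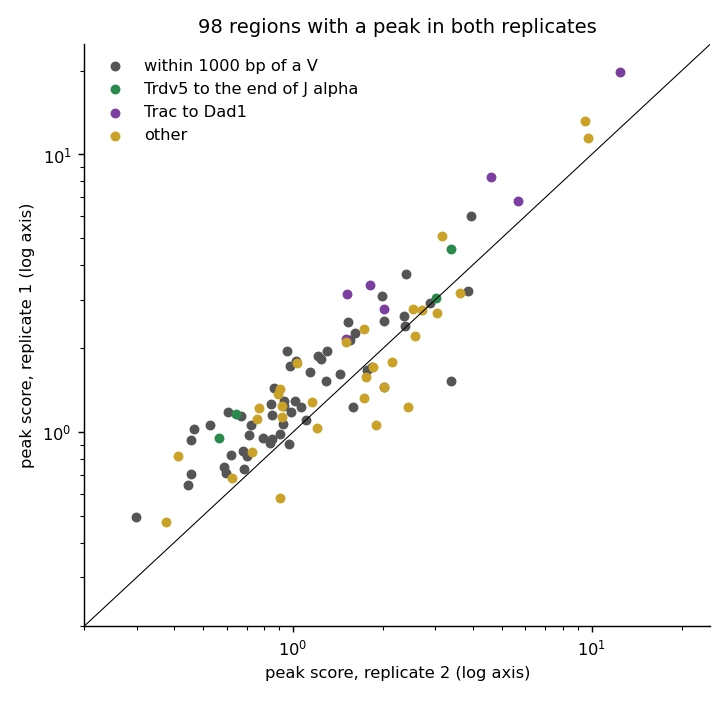
Peak score in replicate 1 against replicate 2 (both log axes) for the 98 regions of the window with a peak in both, coloured by place, with the line of equal scores. Of the 98 points, 78 lie above the line, the highest at 19.9 in replicate 1 and 12.5 in replicate 2 past Trac.

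Of the 10 highest regions more than 1000 bp from any V 5′ end, 8 lay from the T early alpha position onward. The others were the region past Trav13n-4 described above and a region 3093 bp past Trav12-1, which had 2.68 in replicate 1 and 3.03 in replicate 2.

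Set beside the other antigen receptor loci, the V segments of Tra and Trd were accessible in 38.3%, those of Trb in 8 of 22 (36.4%), of Trg in 2 of 7 (28.6%), of Igh in 48 of 113 (42.5%), of Igk in 0 of 102 and of Igl in 0 of 3. Among J segments the share was 9.43% for this locus, against 6 of 13 (46.2%) for Trb, 0 of 4 for Trg, 1 of 4 (25%) for Igh, 0 of 5 for Igk and 0 of 5 for Igl. These shares use the 1000 bp rule, which can take in the peak of a neighbouring J segment. On the segment extended by 100 bp, 3 of 53 J segments of this locus (5.66%) and 2 of 13 of Trb (15.4%) had a peak. In Igh, Trg, Igk and Igl 0 had one. Members of a locus share enhancers and sequence, and no test between loci was made.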

How the data were processed

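DNase I-seq was made from 2 thymus samples, labelled biological replicate 1 and biological replicate 2 and taken as 1 group. Per the labels, the authors deposited intervals on mm10; which tools aligned the reads and called peaks and footprints is not given in the sources used here. Each peak of the deposited lists carries a signal score, a whole multiple (within 0.05 steps) of 1 step per replicate; peaks of the window held 25 to 2680 steps in replicate 1 and 49 to 2053 in replicate 2, which sets their precision. The deposited tracks give a p-value of the false discovery rate kind and list stretches under 0.05. The deposited footprints carry a constant and were used as positions.

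Overlapping entries of a strict list were joined, keeping the highest score; peaks of the replicates were shared when they overlapped by 1 bp. Genes came from GENCODE M21, sequences from GRCm38. The members, lists and tests were chosen with earlier results of these data known. Named in the text were all D and C segments, the 10 highest and 3 lowest accessible V segments, the 5 V segments least alike between replicates, the highest J segments, the outermost J alpha segments, the 10 highest regions outside V windows and the protein-coding genes after Trac. With 1 group of 2 replicates no test between samples was possible, and all values are descriptions. Alternatives changed windows, peak list, overlap, motif form and replicates. The word count, peak assignment, motif and signal search were tested on simulated data. Steps were run with pysam 0.24.0, pandas 2.3.3, NumPy 2.4.6, SciPy 1.17.1 and Matplotlib 3.10.9 under Python 3.11.15.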

Additional observations from a re-analysis of the deposited data

How the results depend on the processing

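With 2 replicates in 1 group, no paired analysis was possible because there was no other group to pair with, and nothing here was tested between samples. Of 54 recomputed values under the alternatives, 43 stayed within the spread or within 1.5 times the count reported. For the mean numbers of peaks by zone, that spread was the one between the replicates. Leaving out a replicate could therefore not move such a mean beyond it, and these checks, counted among the 43, decide nothing. In the J alpha array the mean was 9 peaks, with 3 without replicate 1 and 15 without replicate 2. Accessible V segments numbered 33 to 58 over 8 alternatives, and 49 in each replicate without the other. The J segments with a peak on the segment were 3, but 1 without the extension, 1 among the 50000 highest peaks, and 4 to 7 when either replicate was left out. V signals with a footprint numbered 14, but 1 when the whole heptamer had to lie inside it, 9 with an exact heptamer, and 19 to 22 when either replicate was left out. The mean number of peaks in the V array was 89.5, but 138.5 in the looser lists. The CTCF form with 4 free bases was in 19 regions, against 11 for the stricter consensus. At 50% reciprocal overlap, 60.7% of peaks in replicate 1 and 72.0% in replicate 2 were shared, and of the 50000 highest peaks of replicate 2 in the window, 92.5% were shared. V segments with a peak at the signal end numbered 21 to 24, and at the 5′ end 34 to 40, under the alternatives added after seeing the data. The files give no sequencing depth, so a peak missing in a replicate was not detected at its depth and is not shown to be absent.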

Other observations

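The pseudogenes and olfactory receptor genes given here were named after their values were seen. Of 21 V pseudogenes, 3 (14.3%) were accessible by the same 1000 bp rule, against 44 of the 115 V genes (38.3%) and 28.5% of all annotated genes. They were Trav11n with 1.72 in replicate 1 and 1.86 in replicate 2, Trav5-2 with 1.45 and 2.02, and Trdv3 with 0.844 and 0.729. Many of the V pseudogenes carry the letters d or n of the duplicated part. The part of unique sequence in their share was not tested. Of 9 J pseudogenes, 2 (22.2%) had a peak in both replicates, Traj61 and Traj60, each with 0.956 in replicate 1 and 0.608 in replicate 2. Both pseudogenes took these values from the same peaks, which stood at different places in the replicates. The peak of replicate 2 that met the 0.956 peak of replicate 1 had 0.565. Another 4 had a peak in replicate 1 alone, with 0.793 at Traj55 and Traj54, 1.07 at Traj51 and 0.844 at Traj1. The window also holds 8 olfactory receptor genes, whose products serve smell, and 2 of these had a peak in both replicates, a smaller share than the 59.0% of all protein-coding genes. Olfr1509 had 1.12 in replicate 1 and 0.760 in replicate 2, and Olfr1507 had 0.822 and 0.413, both between Trav1 and Trav2. At the far edge before Trav1, the promoter of Sall2, a transcription factor gene, had 5.36 and 3.52, from peaks that lie outside the window and are not among its counts.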
